A study of Mus musculus with 6 samples.

Results

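The genes described here are 9 enzymes that place or remove marks on chromatin: the DNA methyltransferases Dnmt1 and Dnmt3a, the 5-methylcytosine oxidases Tet1, Tet2 and Tet3, and the lysine acetyltransferases Crebbp, Ep300, Kat2a and Kat2b. They were chosen by gene symbol, which matched 1 gene ID each among the 50383 gene IDs of the deposited tables. All 9 had a mean of at least 1 FPKM over the libraries and were among the 14664 genes tested. FPKM counts the fragments of a gene per length of its transcripts and per fragments mapped in the library, so levels of different genes can be set side by side.

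RNA came from the lateral amygdala, a brain region where fear memories are formed and kept, of male 129xC57BL/6 hybrid mice aged 2 to 3 months. The study was on remote fear memory and on BAF53b, a subunit of the neuronal form of the BAF nucleosome remodelling complex that is encoded by Actl6b. There were 3 groups of 2 libraries. The Baf53b siRNA group received a small interfering RNA against BAF53b, injected 1 day after training, the scrambled siRNA group is named for an RNA without that target, and what the control mice received is not said. Tissue of 4 mice is mentioned in the extraction protocol, but not whether a library holds a pool or 1 animal, so p-values measure the spread between these libraries, which may be technical. Bulk tissue was sequenced, in which fewer cells of a type and less RNA per cell cannot be told apart.

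DNA methyltransferases add a methyl group to cytosine, mostly where a guanine follows. Dnmt1 copies the methylation of the parent strand onto the new strand after replication, and Dnmt3a adds methyl groups at sites that had none and is the main such enzyme of mature neurons. The Tet enzymes oxidise the methyl group to 5-hydroxymethylcytosine, a base that is abundant in brain, and to further products that repair can replace with plain cytosine. Crebbp (CBP) and Ep300 (p300) are closely related coactivators that bind transcription factors such as CREB and acetylate histones at enhancers and promoters. Kat2a (GCN5) and Kat2b (PCAF) are another pair, which acetylate histone H3 as subunits of the large SAGA and ATAC complexes. CREB, its coactivators and both directions of DNA methylation have been studied in rodent learning.

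The targeted gene was read first. Actl6b was at 42.8 and 39.6 FPKM where the label was Baf53b siRNA, at 43.8 and 43.9 FPKM for scrambled siRNA and at 42.9 and 44.1 FPKM for control. The libraries labelled Baf53b siRNA differed from scrambled siRNA by a log2 value of -0.09 (SE 0.12, limma adjusted p = 1.0), with a 95% interval of -0.38 to 0.21. From control they differed by -0.08 (SE 0.12), with a 95% interval of -0.37 to 0.22. Both Baf53b siRNA libraries were below every scrambled siRNA and control library, the nearest at 42.8 against 42.9 FPKM. Groups did not overlap for 22.1% of all tested genes against scrambled siRNA and for 23.8% against control. A lower level of the targeted mRNA was therefore not detectable by the test in these libraries. Marker genes of microglia summed to 499 and 414 FPKM in Baf53b siRNA, 307 and 306 in scrambled siRNA and 208 and 199 in control, and all 6 markers were at or above 1 FPKM in every library. The 7 neuronal markers measured summed to between 1690 and 1970 FPKM, with none at 0. Genes of the mitochondrial chromosome took 19.3% and 22.8% of the FPKM sum in Baf53b siRNA, 15.0% and 26.9% in scrambled siRNA and 19.4% and 29.5% in control, the higher value being that of replicate 2 in each group.

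Promoter sequences are shown because the promoters of these genes differ widely in their number of CG dinucleotides, the site at which Dnmt1 and Dnmt3a act. The windows are the 250 bases before an annotated start, from RefSeq on GRCm38.p6, printed 5′ to 3′ on the gene's strand, with CG in capitals. All 9 genes, each annotated as protein-coding in GENCODE M21, had at least 1 window, 14 in all. The 4 shown hold the most CG or a motif named in the next paragraph, and are a Dnmt1 window at chr9:20952624-20952873 (minus strand), the Tet2 window at chr3:133544391-133544640 (minus strand), the Kat2a window at chr11:100712468-100712717 (minus strand) and the first Kat2b window at chr17:53566721-53566970 (plus strand). An annotated start need not be the outermost of its gene. The Dnmt1 and Tet2 windows lie inside the gene spans given below, and the Kat2b window runs into its span. The same holds for windows not shown, such as that of Crebbp, which lies inside its span. Counts of CG in such windows can therefore include transcribed sequence.
Dnmt1: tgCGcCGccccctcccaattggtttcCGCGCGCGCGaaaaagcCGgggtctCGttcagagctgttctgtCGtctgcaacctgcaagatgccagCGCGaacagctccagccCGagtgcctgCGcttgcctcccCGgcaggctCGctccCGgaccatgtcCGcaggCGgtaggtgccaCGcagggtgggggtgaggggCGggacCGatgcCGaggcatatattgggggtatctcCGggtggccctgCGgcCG
Tet2: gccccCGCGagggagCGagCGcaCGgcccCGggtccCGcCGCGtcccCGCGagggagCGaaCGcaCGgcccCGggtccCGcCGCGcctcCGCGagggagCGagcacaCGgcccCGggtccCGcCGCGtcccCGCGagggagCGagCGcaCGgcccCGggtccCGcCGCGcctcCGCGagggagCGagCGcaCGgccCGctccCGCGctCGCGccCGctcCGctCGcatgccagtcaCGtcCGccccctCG
Kat2a: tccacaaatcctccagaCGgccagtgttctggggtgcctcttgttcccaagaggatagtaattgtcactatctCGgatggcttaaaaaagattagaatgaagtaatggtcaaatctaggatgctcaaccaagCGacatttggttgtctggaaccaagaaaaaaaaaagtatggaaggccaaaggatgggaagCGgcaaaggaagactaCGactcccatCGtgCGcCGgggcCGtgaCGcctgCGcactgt
Kat2b: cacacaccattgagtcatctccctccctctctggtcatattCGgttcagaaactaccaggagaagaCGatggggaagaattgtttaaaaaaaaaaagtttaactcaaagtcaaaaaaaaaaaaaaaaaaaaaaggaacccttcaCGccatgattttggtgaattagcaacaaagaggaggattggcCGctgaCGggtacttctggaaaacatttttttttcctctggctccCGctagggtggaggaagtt
The Tet2 window held 51 CG, more than 99.9% of the 32851 windows of all genes, whose median was 6 with quartiles of 2 and 16. Crebbp followed with 44, the 3 Dnmt3a windows had 38, 40 and 15, the 3 Dnmt1 windows had 26, 7 and 2, and Ep300 had 25. Tet3 had 17 and Tet1 had 15. Kat2a, the gene with the highest RNA level of the 9, had 11, and the Kat2b windows had 6 and 5. The number of CG thus did not follow the order of RNA levels, in which Kat2a was highest and Tet2 was among the lower 3.

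Motifs were searched on both strands of these windows. The cyclic AMP response element TGACGTCA, to which CREB binds, was in 0 of the 14 windows and in 1.55% of all windows. Its shorter form TGACG, which lies within TGACGTCA, was in 2 of the 14, those printed for Kat2a and Kat2b, and in 17.8% of all windows. The E2F motif TTTCGCGC was in the printed Dnmt1 window and in no other of the 14, with 0.256% of all windows holding it. The related TTTGGCGC was in none of the 14 and in 0.417% of all windows. These matches describe the letters of the windows and do not show binding.

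In level, the 9 enzymes spanned a wide range and kept much the same order in every library. By the mean over the 6 libraries the order was Kat2a (17.8 FPKM), Ep300 (13.4 FPKM), Dnmt1 (11.8 FPKM), Dnmt3a (7.99 FPKM), Kat2b (6.78 FPKM), Crebbp (6.38 FPKM), Tet2 (5.53 FPKM), Tet3 (4.51 FPKM) and Tet1 (1.68 FPKM). Kat2a was first and Tet1 last in each of the 6 libraries. Of the 8 pairs of neighbours in that order, the values of Dnmt1 and Dnmt3a and those of Tet3 and Tet1 did not overlap between any libraries, and their deposited intervals did not overlap within any library. The other neighbours overlapped. Ep300 was above Dnmt1 in 5 of 6 libraries, Kat2b above Crebbp in 4 and Crebbp above Tet2 in 4. Kat2a lay above 65.3% to 72.0% of the tested genes, while Tet1 lay above 6.24% to 12.9%.

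Over the 6 libraries, the highest value of each gene was between 1.25 times (Dnmt1) and 1.70 times (Tet2) the lowest. It was under 2 times the lowest for 9 of 9 genes. In 9 of 9 the largest gap between the 2 libraries of a group was greater than the range of the 3 group means. A gap between single libraries varies more than a mean of 2 libraries, so a gene without a group difference often meets this. Neither share was computed over all tested genes, so these counts are not read as particular to the enzymes. None of the 9 was called in any comparison, and the log2 differences of group means lay between -0.10 and 0.19.

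**Figure D1:**
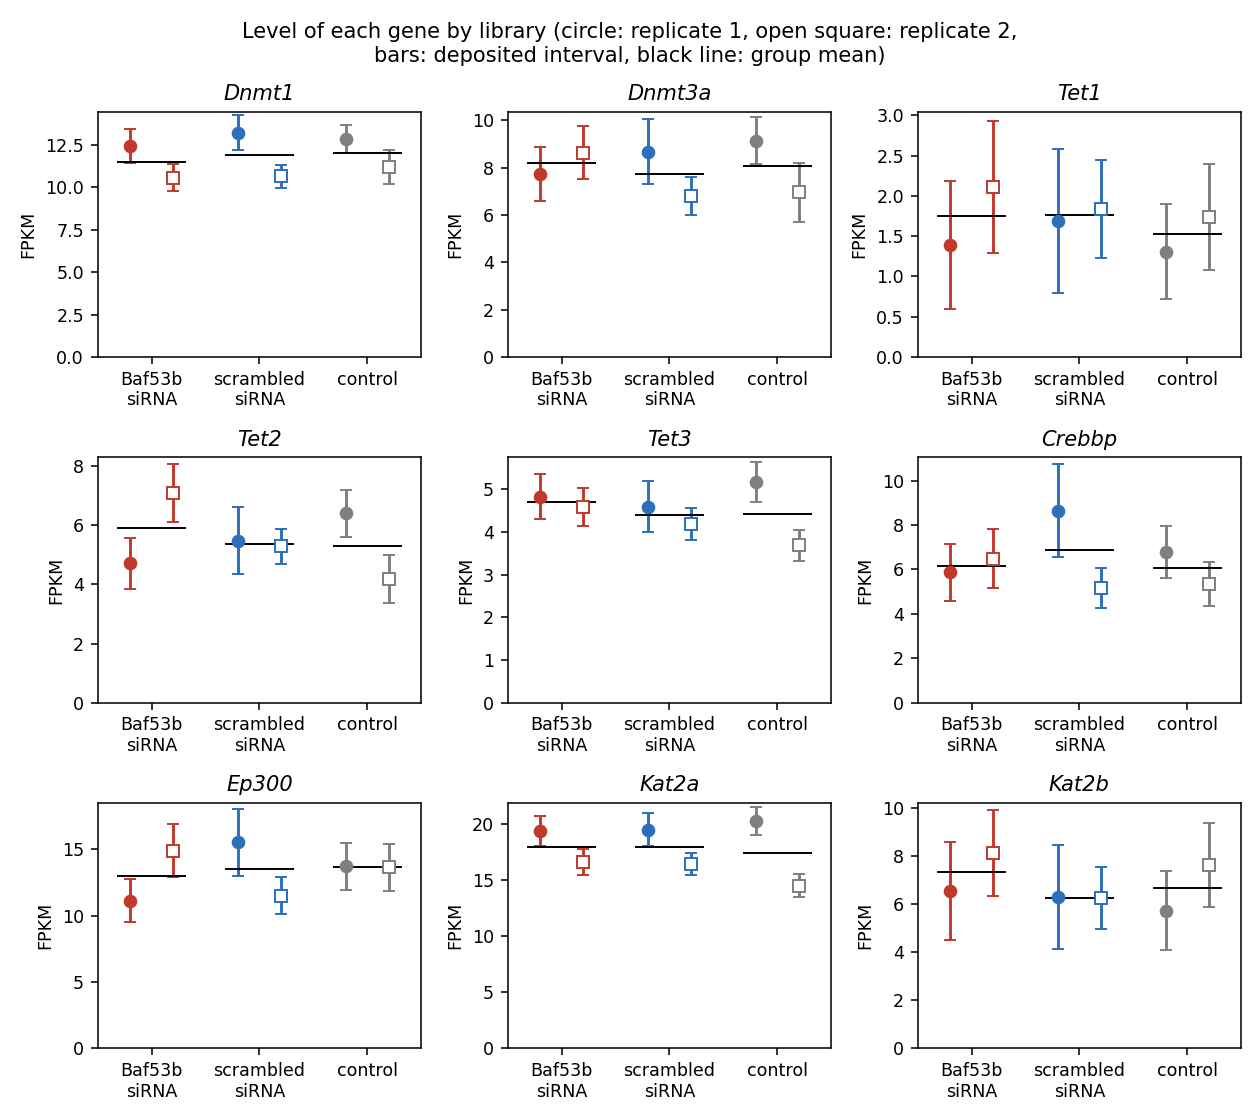
FPKM (vertical axis, from 0, with its own scale for each gene) of the 9 enzymes in Baf53b siRNA, scrambled siRNA and control libraries; circles are replicate 1, open squares replicate 2, bars the deposited confidence interval and black lines the group mean. The group means of each gene lie close together. For all 9 the largest of the 3 gaps between libraries of a group is greater than the range of the means. The share of all tested genes with this trait was not computed. For Kat2b in scrambled siRNA, Ep300 in control and Tet2 in scrambled siRNA the libraries are nearly equal.

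Among the writers, Dnmt1 (chr9:20907209-20959888 on mm10, minus strand) had 12.4 and 10.6 FPKM in Baf53b siRNA, 13.2 and 10.6 in scrambled siRNA and 12.85 and 11.2 in control. Replicate 1 was the higher library in each group, and the groups overlapped. The means were 11.5 ± 1.31 FPKM in Baf53b siRNA and 11.9 ± 1.83 FPKM in scrambled siRNA (SD, n = 2 each), and the log2 values differed by -0.05 (SE 0.17, limma adjusted p = 1.0). Dnmt1 was also among the best measured of the 9, with deposited intervals of 6.39% to 8.87% of the value on either side. Uhrf1, which brings Dnmt1 to newly replicated DNA, had at most 0.74 FPKM in any library and was not tested. Marker genes of dividing cells, in which Dnmt1 copies methylation, summed to 39.9 and 38.7 FPKM in Baf53b siRNA, 38.0 and 35.7 in scrambled siRNA and 31.4 and 39.0 in control. Of these 10 markers only 4 passed the minimum level. Between 3 (control replicate 2) and 7 (both Baf53b siRNA libraries) were at or above 1 FPKM in a library.

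Dnmt3a (chr12:3806007-3914443, plus strand) had 7.73 and 8.63 FPKM in Baf53b siRNA, 8.67 and 6.81 in scrambled siRNA and 9.14 and 6.96 in control. Its high library was replicate 2 in Baf53b siRNA and replicate 1 in the other groups, which overlapped with it. Baf53b siRNA averaged 8.18 ± 0.641 FPKM and scrambled siRNA 7.74 ± 1.32 FPKM (SD, n = 2 each), and the log2 values differed by 0.08 (SE 0.19, limma adjusted p = 1.0). Of its relatives, Dnmt3b, which acts mainly in the embryo, had 0.148 to 0.333 FPKM, and Dnmt3l, a partner without activity of its own, was listed at 0 in 3 libraries and at no more than 0.137 FPKM in the others. Dnmt3a was therefore the one measured methyltransferase for unmethylated sites that passed the minimum level. Dnmt1 made up 61.7% and 55.1% of the summed FPKM of Dnmt1 and Dnmt3a in Baf53b siRNA, 60.4% and 61.0% in scrambled siRNA and 58.4% and 61.7% in control, so the balance of the pair was lowest in 1 Baf53b siRNA library and the groups overlapped.

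Of the erasers, Tet2 (chr3:133463679-133545139, minus strand) had 4.72 and 7.09 FPKM in Baf53b siRNA, 5.47 and 5.28 in scrambled siRNA and 6.41 and 4.18 in control. Its highest library was in Baf53b siRNA and its lowest in control, and the Baf53b siRNA libraries lay on either side of the scrambled siRNA libraries. The means were 5.91 ± 1.68 FPKM in Baf53b siRNA and 5.38 ± 0.134 FPKM in scrambled siRNA (SD, n = 2 each), and the log2 values differed by 0.09 (SE 0.24, limma adjusted p = 1.0). Against control the difference of 0.14 (SE 0.24, limma adjusted p = 1.0) was the largest of the 9 in that comparison.

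Tet3 (chr6:83362373-83459084, minus strand) had 4.83 and 4.59 FPKM in Baf53b siRNA, 4.59 and 4.19 in scrambled siRNA and 5.17 and 3.68 in control. Both Baf53b siRNA libraries were above both scrambled siRNA libraries, the nearest of them at 4.591 against 4.588 FPKM, and both lay inside the span of the control libraries. The log2 difference from scrambled siRNA was 0.08 (SE 0.18, limma adjusted p = 1.0). Tet1 (chr10:62804570-62908996, minus strand), the least abundant of the 9, had 1.39 and 2.11 FPKM in Baf53b siRNA, 1.69 and 1.84 in scrambled siRNA and 1.31 and 1.73 in control. Replicate 2 was the higher library in each group. Its deposited intervals reached 32.9% to 57.1% of the value on either side, the widest of the 9, and overlapped in all 15 pairs of libraries. From scrambled siRNA, Baf53b siRNA differed by -0.02 in log2 (SE 0.20, limma adjusted p = 1.0).

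Within the Tet family Tet1 gave 10.2% to 18.1% of the summed FPKM. The ratio of Tet2 to Tet3 was 0.978 and 1.54 in Baf53b siRNA, 1.19 and 1.26 in scrambled siRNA and 1.24 and 1.13 in control. The Baf53b siRNA libraries held both extremes of that ratio, so the spread within the group was wider than any distance between groups. The ratio of Tet3 to Tet1 ran from 2.13 to 3.95, and was higher in replicate 1 than in replicate 2 of each group.

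**Figure D2:**
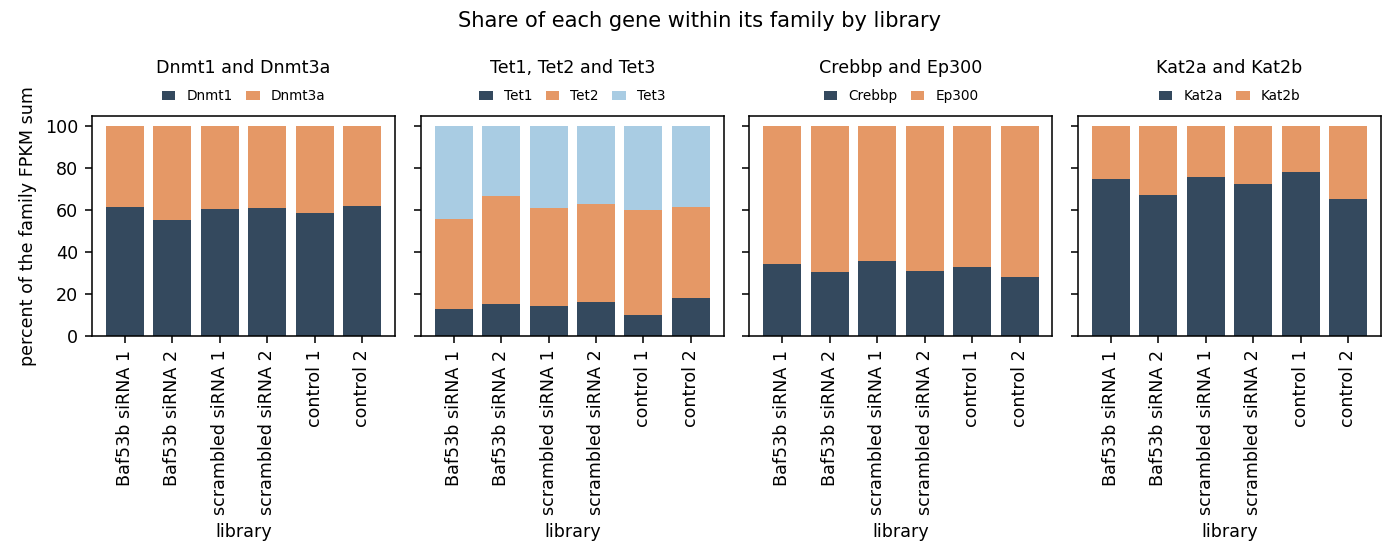
Percent of the summed FPKM of each family (vertical axis) held by its members in each library (horizontal axis, Baf53b siRNA, scrambled siRNA and control, replicates 1 and 2). Dnmt1, Ep300 and Kat2a hold the larger part of their pair in all 6 libraries, and Tet1 holds 10.2% to 18.1% of the Tet sum.

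Among the coactivators, Crebbp (chr16:4081328-4213997, minus strand) had 5.86 and 6.49 FPKM in Baf53b siRNA, 8.64 and 5.15 in scrambled siRNA and 6.77 and 5.35 in control. The scrambled siRNA libraries were the highest and the lowest of the 6, and the others lay between them. Baf53b siRNA averaged 6.18 ± 0.441 FPKM and scrambled siRNA 6.90 ± 2.47 FPKM (SD, n = 2 each), and the log2 values differed by -0.10 (SE 0.24, limma adjusted p = 1.0). The 95% interval of -0.66 to 0.45 was the widest of the 9 on the lower side. Ep300 (chr15:81585351-81652077, plus strand) had 11.1 and 14.9 FPKM in Baf53b siRNA, 15.5 and 11.5 in scrambled siRNA and 13.7 and 13.6 in control. The control libraries were nearly equal and lay inside the span of both other groups. From scrambled siRNA, Baf53b siRNA differed by -0.05 in log2 (SE 0.20, limma adjusted p = 1.0). Ep300 was the more abundant of the pair in every library, with a ratio to Crebbp of 1.90 and 2.30 in Baf53b siRNA, 1.80 and 2.23 in scrambled siRNA and 2.02 and 2.55 in control. This ratio was higher in replicate 2 than in replicate 1 of each group.

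Kat2a (chr11:100704746-100712465, minus strand) had 19.4 and 16.6 FPKM in Baf53b siRNA, 19.5 and 16.5 in scrambled siRNA and 20.3 and 14.5 in control. Replicate 1 was higher in each group. The means of 18.0 ± 1.97 FPKM in Baf53b siRNA and 18.0 ± 2.17 FPKM in scrambled siRNA (SD, n = 2 each) differed by 0.00231 in log2 (SE 0.19, limma adjusted p = 1.0), closer to 0 than that of any other of the 9 in this comparison. Its deposited intervals were the narrowest of the 9, at 6.08% to 7.49% of the value on either side, and the intervals of 6 of the 15 pairs of libraries overlapped, the fewest of the 9.

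Kat2b (chr17:53566861-53672720, plus strand) had 6.56 and 8.14 FPKM in Baf53b siRNA, 6.32 and 6.26 in scrambled siRNA and 5.73 and 7.65 in control. Both Baf53b siRNA libraries were above both scrambled siRNA libraries, and the control libraries reached below and above the scrambled siRNA libraries. Baf53b siRNA averaged 7.35 ± 1.12 FPKM and scrambled siRNA 6.29 ± 0.0398 FPKM (SD, n = 2 each). At 0.19 (SE 0.18, limma adjusted p = 1.0) its log2 difference was the largest of the 9, and 81.6% of the tested genes had a smaller absolute difference. The deposited intervals of Kat2b, 20.6% to 34.6% of the value on either side, overlapped in all 15 pairs of libraries. The ratio of Kat2a to Kat2b was 2.96 and 2.04 in Baf53b siRNA, 3.09 and 2.63 in scrambled siRNA and 3.54 and 1.90 in control, with replicate 1 higher in each group.

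For Baf53b siRNA against scrambled siRNA, which sets the RNA against BAF53b beside an RNA of scrambled sequence, limma called 0 of the 9 genes at an adjusted p under 0.05, and 0 had an unadjusted p under 0.05. Over all tested genes the share called was 0.123%, or 18 genes, all higher, and 444 genes had an unadjusted p under 0.05. By sign 5 of the 9 were higher and 4 lower, with a median log2 difference of 0.00231 beside 0.00265 over all tested genes. The groups did not overlap for 2 of the 9, Tet3 and Kat2b, and for 22.1% of all tested genes. The 95% intervals lay within -0.66 to 0.65 on the log2 scale, that is between 0.633 and 1.57 times scrambled siRNA in FPKM + 1. Their half-widths ran from 0.39 to 0.56 in log2. Differences smaller than the half-width of a gene were not resolved in this fit with 2 libraries a group. The intervals are not adjusted for the number of genes tested, so a larger difference need not be called. They come from the fit that does not pair libraries by replicate number.

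Baf53b siRNA against control shares the Baf53b siRNA libraries with the comparison above. Limma called 0 of the 9 and 0 had an unadjusted p under 0.05, where 1.23% of all tested genes were called and 736 had an unadjusted p under 0.05. By sign 7 of the 9 were higher, with a median log2 difference of 0.06 beside 0.04 over all tested genes, and 60.7% of all genes were higher by sign. The lowest value was -0.08 (Ep300) and the highest 0.14 (Tet2). Kat2b was at 0.12 and Tet1 at 0.12, Tet3 was at 0.09, Kat2a at 0.06, and Dnmt3a and Crebbp were both at 0.03. Dnmt1 was at -0.06. The groups overlapped for all 9, and did not overlap for 23.8% of all tested genes.

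Scrambled siRNA against control sets the scrambled sequence beside mice whose treatment is not given, and shares libraries with both comparisons above. Limma called 0 of the 9 and 0.0% of all tested genes, with 0 of the 9 and 325 of all genes at an unadjusted p under 0.05. By sign 5 of the 9 were higher, with a median log2 difference of 0.0024 beside 0.04 over all tested genes. The values ran from -0.07 (Kat2b) to 0.14 (Tet1), the groups overlapped for all 9, and 18.3% of all tested genes did not overlap.

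**Figure D3:**
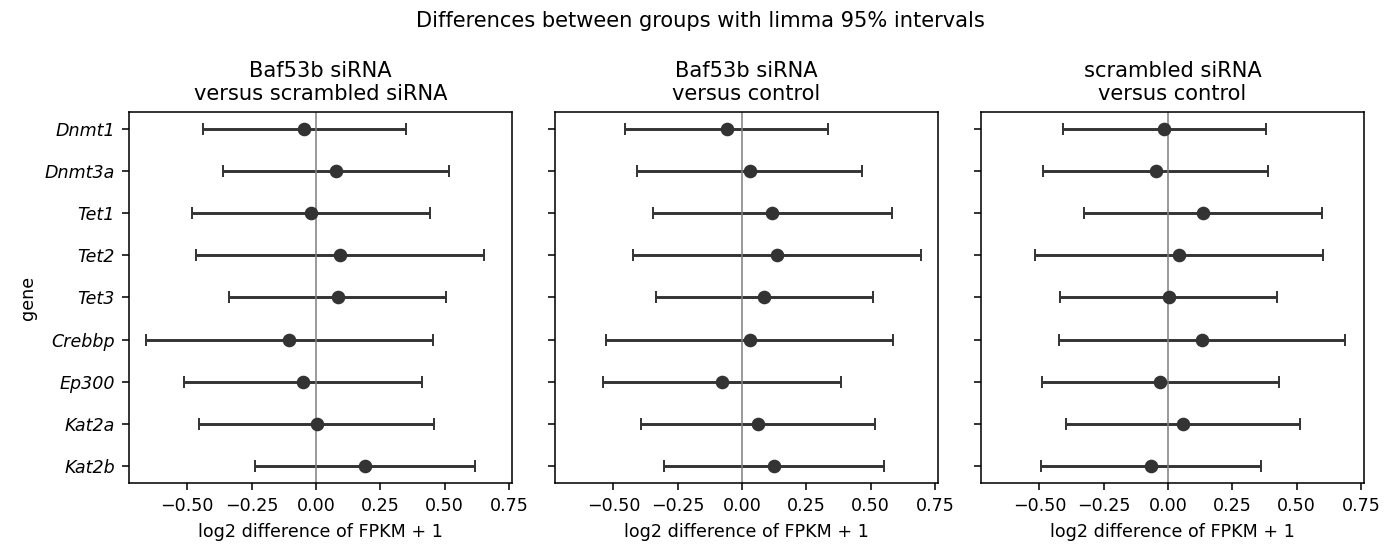
Log2 difference of FPKM + 1 (horizontal axis) of the 9 genes (vertical axis) in the 3 comparisons; points are limma estimates and bars their 95% intervals. All 27 intervals contain 0, and the estimates lie between -0.10 and 0.19.

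For each of the 9 genes some group had libraries further apart than the group means, a count without a share over all tested genes. The absolute log2 difference between replicates 1 and 2 had a median over the 9 genes of 0.21 in Baf53b siRNA, 0.23 in scrambled siRNA and 0.35 in control, beside 0.18, 0.21 and 0.22 over all tested genes in the same groups. Dnmt1, Tet3 and Kat2a were higher in replicate 1 of all 3 groups, and Tet1 was higher in replicate 2 of all 3. These 4 of 9 genes (44.4%) with the same sign in all groups stand beside 48.5% of all tested genes. The other 5 genes differed in sign between groups. As replicate 1 minus replicate 2, Tet2 was at -0.50 in Baf53b siRNA and at 0.52 in control, and Crebbp was at 0.65 in scrambled siRNA. Replicate 1 was the higher library for 3 of the 9 in Baf53b siRNA, 8 in scrambled siRNA and 7 in control, beside 60.3% of all tested genes in Baf53b siRNA, 68.1% in scrambled siRNA and 64.5% in control. The mitochondrial share given above also differed between replicates 1 and 2 of each group, and its part in these differences was not tested.

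**Figure D4:**
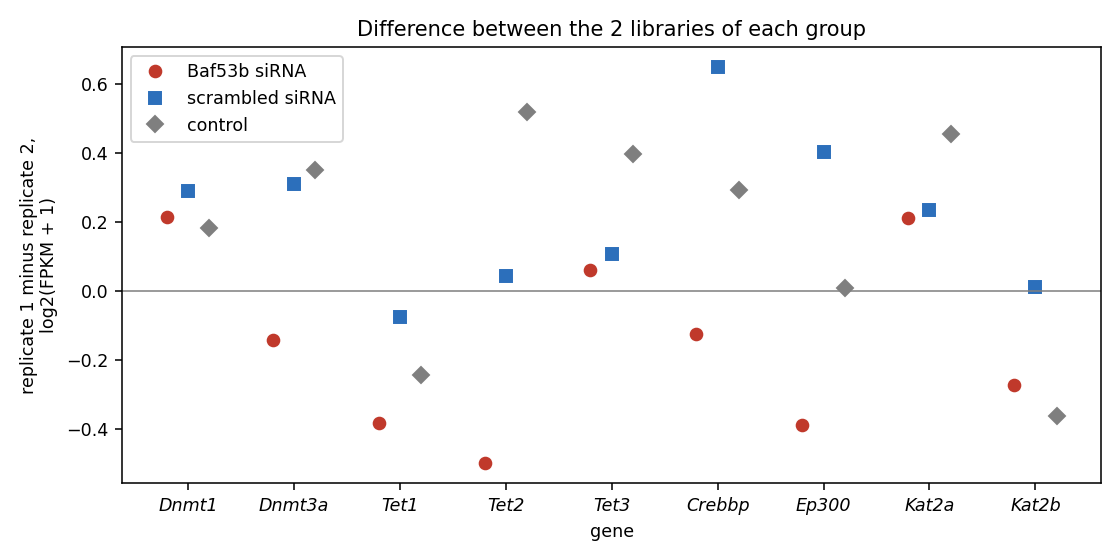
Replicate 1 minus replicate 2 in log2(FPKM + 1) (vertical axis) for each of the 9 genes (horizontal axis) in Baf53b siRNA, scrambled siRNA and control. Dnmt1, Tet3 and Kat2a lie above 0 in all 3 groups, Tet1 lies below 0 in all 3, and the other 5 genes lie on both sides.

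Genes that work with these enzymes were read from 6 lists. Of 38 readers and partners of DNA methylation, 30 passed the minimum level. Against scrambled siRNA 0 of the 30 were called by limma, with a median log2 difference of 0.07, and Apobec1 and Apobec3 alone had an unadjusted p under 0.05. Against control 2 of the 30 rose in Baf53b siRNA and 0 fell, with a median of 0.14 beside 0.04 over all tested genes, of which 1.23% were called, all higher. Between scrambled siRNA and control 0 of the 30 were called, and Apobec3 alone had an unadjusted p under 0.05. The 2 genes that rose, Apobec1 and Apobec3, are cytidine deaminases, enzymes better known for editing RNA and for restricting retroviruses than for removing DNA methylation. Apobec3 had 4.82 and 4.35 FPKM in Baf53b siRNA, 2.31 and 2.47 in scrambled siRNA and 0.961 and 0.704 in control. Its libraries fell into 3 separate levels. The log2 difference of Baf53b siRNA was 1.61 (SE 0.16, limma adjusted p = 0.00753) from control and 0.72 (SE 0.16, limma adjusted p = 0.415) from scrambled siRNA. Apobec1 had 2.35 and 2.70 FPKM in Baf53b siRNA, 0.896 and 1.02 in scrambled siRNA and 0.493 and 0.523 in control, again without overlap. Its log2 difference was 1.22 from control (SE 0.16, limma adjusted p = 0.02) and 0.85 from scrambled siRNA (SE 0.16, limma adjusted p = 0.258). The Apobec1 call was lost without either control or either Baf53b siRNA library (limma adjusted p of 0.0904 to 0.127), with quantile normalization (0.0504) and with no filter on low values (0.0674). The Apobec3 call was lost without Baf53b siRNA replicate 1 (limma adjusted p = 0.0963) and with no filter (0.0649). Microglial markers had the same order of groups in their sums given above, and leukocyte markers summed to 20.3 and 15.3 FPKM in Baf53b siRNA, 8.39 and 8.72 in scrambled siRNA and 4.13 and 4.10 in control. Only 2 of the 8 leukocyte markers, Ptprc and Ly6c2, passed the minimum level, and they gave much of these sums. Ptprc had 6.54 and 5.59 FPKM in Baf53b siRNA, 2.27 and 3.54 in scrambled siRNA and 0.968 and 1.49 in control. Ly6c2 had 6.51 and 4.54 FPKM in Baf53b siRNA, 4.81 and 3.91 in scrambled siRNA and 2.8 and 2.39 in control. The T cell genes Cd3g and Cd3e were listed at 0 in both control libraries. Of the 6 astrocyte markers, Gfap, which reactive astrocytes raise, had 170 and 178 FPKM in Baf53b siRNA, 45.1 and 47.3 in scrambled siRNA and 16.9 and 18.3 in control, with a limma adjusted p of 0.0111 against scrambled siRNA and 0.000553 against control. Aqp4 was called against control (limma adjusted p = 0.0446), and the 6 markers summed to 836 and 826 FPKM in Baf53b siRNA, 704 and 647 in scrambled siRNA and 589 and 641 in control, with none at 0. These sums include the Gfap values. By sign only 4 of the 6 markers were higher in Baf53b siRNA than in scrambled siRNA, with log2 differences from -0.108 to 1.89 (Gfap). Against control 6 of 6 were higher, from 0.0184 to 3.23 (Gfap). The part of these cells in the Apobec1 and Apobec3 values was not tested.

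The lists around acetylation and CREB held no called gene in any of the 3 comparisons. They were 16 tested of 18 other acetyltransferases, 27 of 29 partners of the Kat2a and Kat2b complexes, and 14 of 15 CREB family members and coactivators. In the first, Naa50, an acetyltransferase of protein ends, differed most between Baf53b siRNA and scrambled siRNA, at 0.26 in log2 (SE 0.24), with 24.2 and 28.7 FPKM in Baf53b siRNA against 16.6 and 28.6 FPKM in scrambled siRNA. One scrambled siRNA library was below both Baf53b siRNA libraries, and the other was close to the higher of them. Ncoa1, a coactivator of nuclear receptors, was at 0.16 (SE 0.16). Among the complex partners Atxn7l2, a relative of the SAGA subunit Atxn7, was at 0.33 (SE 0.27) and Taf12, a subunit of SAGA and of TFIID, at 0.27 (SE 0.18). Creb1 itself had 12 and 9.87 FPKM in Baf53b siRNA, 9.99 and 8.99 in scrambled siRNA and 10.6 and 11.8 in control, with overlapping groups and a log2 difference of 0.18 (SE 0.15) from scrambled siRNA. Cited2, which binds Crebbp and Ep300, was at 0.11 (SE 0.14). The limma adjusted p was 1.0 for these 6 genes in all 3 comparisons.

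The enzymes depend on 2 substrates, S-adenosylmethionine as methyl donor and acetyl-CoA as acetyl donor. Of 15 genes of the methyl donor pathway 13 were tested and 0 were called by limma in any comparison. Ahcyl2, a relative of S-adenosylhomocysteine hydrolase, had 26.6 and 24.3 FPKM in Baf53b siRNA, 33.3 and 29.3 in scrambled siRNA and 29.2 and 29.7 in control, and Baf53b siRNA lay below both other groups. Its log2 difference from scrambled siRNA was -0.29 (SE 0.13, limma adjusted p = 1.0). Ahcy, the hydrolase that clears the by-product of methylation, was at -0.24 (SE 0.15, limma adjusted p = 1.0). All 11 genes of acetyl-CoA supply were tested and 0 were called, with a median of -0.06 in log2 for Baf53b siRNA minus scrambled siRNA beside 0.00265 over all tested genes. Acss2, which makes acetyl-CoA from acetate and works in the nucleus of neurons, had 10.8 and 9.84 FPKM in Baf53b siRNA, 12.2 and 11.0 in scrambled siRNA and 13.2 and 12.4 in control. Its groups did not overlap, and the log2 difference was -0.15 (SE 0.14, limma adjusted p = 1.0) from scrambled siRNA and -0.29 (SE 0.14, limma adjusted p = 1.0) from control. Acat2, an acetyl-CoA acetyltransferase of the cytosol, was at -0.16 (SE 0.16, limma adjusted p = 1.0) from scrambled siRNA. In these 5 lists around acetylation, CREB and substrates, 0 genes had an unadjusted limma p under 0.05 in any comparison.

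Likeness of pattern was described among the 73 tested genes of the chromatin lists, by Pearson's r of log2(FPKM + 1) over the 6 libraries. Both values of a pair come from the same library and share its depth and dissection, and no test was made. The nearest was Mbd3, a subunit of the NuRD complex, for Kat2a (r = 0.981), Ncoa3, a nuclear receptor coactivator, for Tet3 (0.976), Trrap, the large scaffold of SAGA, for Dnmt3a (0.962), Atxn7l3, a subunit of the SAGA deubiquitinating module, for Dnmt1 (0.961) and Uhrf2 for Tet2 (0.951). Dmap1 was nearest to Crebbp (0.929) and Usp22, the SAGA deubiquitinase, to Ep300 (0.774). Higher values occurred among the 14664 tested genes. For these 7 enzymes, between 29 (for Tet3) and 270 (for Dnmt1) of those genes had a higher r with the same enzyme. Mbd3 had 56.2 and 44.0 FPKM in Baf53b siRNA, 56.8 and 42.1 in scrambled siRNA and 54.8 and 37.0 in control, higher in replicate 1 of each group as Kat2a was.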

How the data were processed

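Lateral amygdala RNA was sequenced in 6 libraries, 2 each of Baf53b siRNA, scrambled siRNA and control. Stranded, paired-end libraries were made from poly(A) RNA, per the labels' protocols. The submitters' processing notes name TopHat2 2.1.1, Cufflinks 2.2.1, bcl2fastq 2.19.1.403 and the build mm10. Which annotation was used is not given in the sources used here, nor are the settings. FPKM per gene and a confidence interval were deposited by the authors, per the file headers. These values are relative to the mapped fragments of a library, so genes that take many fragments lower the others. Read counts were not used, and precision was read from the deposited intervals, which cover the estimation error of 1 library and not the spread between libraries.

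Of the 50383 gene IDs, 48 had several rows, which were summed, and 4 with a failed estimate were left out. The 9 enzymes had 1 row each, and their spans were identical to GENCODE M21 for 9 of 9. Values were taken as log2(FPKM + 1), which understates changes of low genes. Genes with a mean of at least 1 FPKM were kept, and 353 small RNA genes at that level were left out, which left 14664. A model of 1 mean per group was fitted over the 6 libraries (limma 3.58.1, R 4.3.3; moderated with a variance trend, two-sided, 3 residual and 3.99 prior degrees of freedom), with Benjamini-Hochberg adjustment over all tested genes at 0.05. The fit was also run on simulated data drawn with libraries independent of each other, and no result here rests on that run. The deviations of libraries with the same replicate number correlated over genes at 0.36 (Baf53b siRNA and scrambled siRNA), 0.18 (Baf53b siRNA and control) and 0.39 (scrambled siRNA and control), so the numbers of the labels were taken to pair the libraries, and a fit with the number as a block was run beside it. Ratios between enzymes were taken within a library and not tested.

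The enzymes and the lists of related genes were chosen with earlier results of these data known. Of each list, every called gene and the 2 with the largest absolute difference between Baf53b siRNA and scrambled siRNA were named. Uhrf1, Dnmt3b and Dnmt3l were added after their values were seen. The gene nearest in pattern to Tet1 and to Kat2b is not reported here. Pseudocount, filter, scaling, block, robust estimation and the libraries in the fit were varied.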

Additional observations from a re-analysis of the deposited data

Results flagged for a closer look

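Each deposited table also holds 92 spike-in rows for synthetic RNA. No label speaks of them and no comparison here uses them. Their summed FPKM was 4820 and 811 in Baf53b siRNA, 207 and 656 in scrambled siRNA and 117 and 125 in control, so all 6 libraries had a signal there and Baf53b siRNA replicate 1 had the highest. The 4820 FPKM compare with an FPKM sum of about 634129 over all genes of that library.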

How the results depend on the processing

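No enzyme was called in any comparison under any of the 15 alternatives, in which the lowest limma adjusted p was 0.704 and the lowest unadjusted p 0.0759. At a minimum mean of 5 FPKM Tet1 and Tet3 were not tested and 7 enzymes remained. With the replicate number as a block the log2 differences of the enzymes were the same (Kat2b 0.19 between Baf53b siRNA and scrambled siRNA, SE 0.13). No enzyme was called with it. Signs were not stable: 51 of 399 alternative values had the other sign, and in no case was either value called. Many of the 399 could not change sign, because the setting leaves the estimate as it was. Such settings are the filters, the block, robust estimation, the compared groups alone, and leaving out a library of the group not compared. The share of 51 in 399 therefore understates how often signs changed where they could. Between Baf53b siRNA and scrambled siRNA quantile normalization gave -0.0088 for Kat2a. Between Baf53b siRNA and control it gave -0.046 for Dnmt3a, -0.0105 for Tet1, -0.0266 for Tet3 and -0.073 for Crebbp, and median-ratio scaling gave -0.0169 for Dnmt3a and -0.0157 for Crebbp. Between scrambled siRNA and control quantile normalization gave -0.025 for Tet2 and -0.0579 for Tet3, and Tet3 was at -0.0384 with median-ratio scaling and -0.0203 with equal sums of non-mitochondrial FPKM. The cause was not tested. Over all tested genes the 18 calls between Baf53b siRNA and scrambled siRNA became 1 with a pseudocount of 0.1, 0 with no filter (1497 at an unadjusted p under 0.05), 8 at a minimum of 5 FPKM, 28 with equal non-mitochondrial sums and 30 with robust estimation. The 181 calls against control became 42 with no filter and 71 at the minimum of 5 FPKM. With the replicate number as a block, 13 genes were called between Baf53b siRNA and scrambled siRNA and 188 between Baf53b siRNA and control. Genes at an unadjusted limma p under 0.05 then went from 444 to 676 and from 736 to 1178 in these comparisons. Between scrambled siRNA and control they went from 325 to 726. With 1 library left out, genes called higher numbered 2 to 24 and genes called lower 0 to 5 between Baf53b siRNA and scrambled siRNA (2 higher and 5 lower without scrambled siRNA replicate 1), and 34 to 138 higher and 0 to 7 lower between Baf53b siRNA and control (7 lower without control replicate 1). Between scrambled siRNA and control, with 0 calls from all 6 libraries, 0 to 5 were higher and 0 to 6 lower.

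Leaving out 1 library at a time, the Baf53b siRNA minus scrambled siRNA differences ranged from -0.19 to 0.10 for Dnmt1, -0.0767 to 0.2325 for Dnmt3a, -0.2094 to 0.1727 for Tet1, -0.1571 to 0.3436 for Tet2, -0.4276 to 0.2209 for Crebbp, -0.2503 to 0.1511 for Ep300 and -0.1143 to 0.1189 for Kat2a. Tet3 ranged from 0.0305 without scrambled siRNA replicate 2 to 0.1378 without scrambled siRNA replicate 1, and Kat2b from 0.0526 without Baf53b siRNA replicate 2 to 0.3263 without Baf53b siRNA replicate 1. Against control, Baf53b siRNA ranged from -0.1668 to 0.0475 for Dnmt1, -0.1451 to 0.2044 for Dnmt3a, -0.0729 to 0.3091 for Tet1, -0.1229 to 0.3941 for Tet2, -0.112 to 0.2852 for Tet3, -0.1167 to 0.1752 for Crebbp, -0.2742 to 0.1159 for Ep300, -0.1656 to 0.2878 for Kat2a and -0.0585 to 0.3043 for Kat2b. Scrambled siRNA minus control ranged from -0.1597 to 0.1304 for Dnmt1, -0.223 to 0.1265 for Dnmt3a, -0.2162 to 0.3009 for Tet2, -0.1962 to 0.201 for Tet3, -0.1917 to 0.4568 for Crebbp, -0.2302 to 0.1711 for Ep300, -0.1679 to 0.2855 for Kat2a and -0.2479 to 0.1149 for Kat2b, and Tet1 from 0.0148 without control replicate 1 to 0.2581 without control replicate 2. Of 75 alternative values of the ratios between enzymes, 12 moved by more than the spread between libraries, all when a library was left out. No read counts were used, and each group had 2 libraries.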
